A study of Culex quinquefasciatus with 12 samples.

Results

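The midgut response of *Culex quinquefasciatus* larvae after 12 h of exposure to Bin toxin was measured on 4 arrays of a series of 12. The arrays were chosen by their titles, which name untreated against toxin-treated midgut at 12 h, replicates 1 to 4. The other arrays, 4 at 6 h and 4 at 18 h, are used here only where they show how the 12 h response differs. Bin-exposed larvae were larvae of the JHB strain in the third instar, which had been starved for 3 h and then given BinA and BinB, made in *Escherichia coli* and mixed in equal molar amounts, at 80 ng/ml, the concentration that kills 90% of larvae. Untreated larvae of the same strain and stage were handled without toxin. Each of the 4 replicates began with 20 larvae, RNA came from pools of at least 20 midguts per the labels, and midguts of both groups were taken only from larvae still alive at the end of the exposure, so the Bin-exposed RNA came from survivors of that time. On each array, RNA of Bin-exposed midguts carried the red dye Cy5 and RNA of untreated midguts the green dye Cy3. The dyes were not exchanged on any array, so a dye effect particular to a gene adds to its toxin effect and cannot be told apart from it.

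Bin is a pair of proteins from the bacterium *Lysinibacillus sphaericus* that larvae swallow with their food. Gut proteases activate the proteins, BinB binds a membrane-anchored alpha-glucosidase on the epithelium, BinA enters with it, and the poisoned epithelial cells swell and fill with vacuoles. In *Culex pipiens* that receptor is named Cpm1, for maltase 1. The larval midgut secretes proteases, amylases and lipases into its lumen, absorbs their products through transporters of the brush border, wraps the food in a chitin-bearing peritrophic matrix, and carries much of the detoxification of the larva.

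Signals were read from 45220 spots an array, which gave 19751 genes with 2 to 6 spots each. A value below is the log2 ratio of Bin-exposed over untreated midguts, averaged over the spots of a gene. A gene is called higher or lower where the Benjamini-Hochberg adjusted p of limma, fitted over all genes and all 12 arrays, was under 0.05 and the mean ratio was at least 0.75 in log2, which is 1.68-fold. Between 75.6% and 83.6% of spots were well above background in the Bin-exposed channel of the 4 arrays, against 79.3% to 84.6% in the untreated channel. Across genes, log ratios of the arrays correlated between 0.69 for replicates 1 and 3 and 0.88 for replicates 3 and 4. Members of the midgut epithelium lists (trypsins and chymotrypsins, exopeptidases, starch hydrolases and alkaline phosphatases) were each well above background in a channel of some array. These lists hold only genes that the study had called on these arrays, so this does not test which tissue was taken.

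The channels did not vary alike over the 4 arrays, which bears on every p-value below. The median SD of a gene's log2 level over the arrays of 12 h was 0.117 in the Bin-exposed channel and 0.0538 in the untreated channel, and the untreated SD was the smaller for 82.0% of genes. Levels of the Bin-exposed channel correlated between 0.982 and 0.993 among these arrays, and those of the untreated channel between 0.998 and 0.999. Over the 1855 genes called at 12 h the median SD was 0.212 in the Bin-exposed channel and 0.0512 in the untreated channel, and the untreated SD was the smaller for 1756 of them. The same spot varied less between arrays in the untreated channel (median SD 0.0687) than repeated spots of a probe varied within an array (0.0903). The study's methods describe labelled RNA made for each replicate. Whether the untreated RNA of the 4 arrays came from separate pools of midguts was not tested. The p-values measure the spread of these ratios, to which untreated midguts added little.

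**Figure D1:**
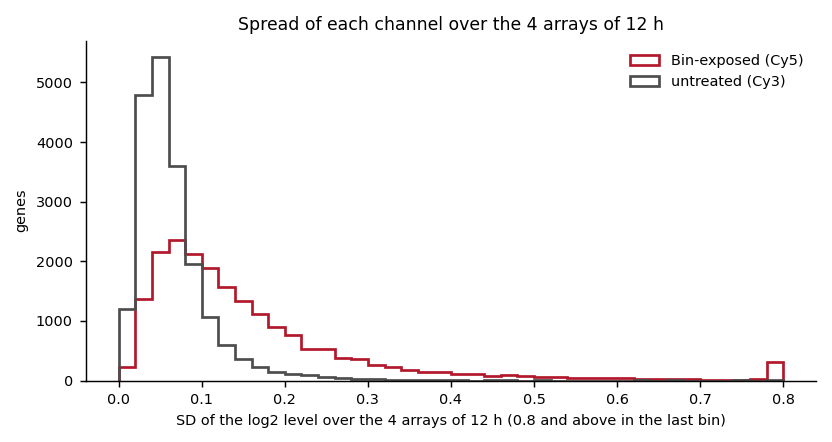
Histograms of the SD of each gene's log2 level over the 4 arrays of 12 h (x axis, log2 units) against the number of genes (y axis), for the Bin-exposed channel (red) and the untreated channel (grey). The grey curve peaks to the left of the red one: the medians are 0.117 in Bin-exposed and 0.0538 in untreated midguts.

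At 12 h, 767 genes were higher and 1088 were lower in Bin-exposed midguts, which is 3.88% and 5.51% of the genes tested and 9.39% together. All 4 arrays had the same sign for 1831 of these 1855 genes. The median called rise was 1.01 in log2 and the median called fall -1.08, while 35 rises and 79 falls went past 2. Gene names and functional groups were taken from a table of 3780 genes that the study itself had called at some time on these arrays, so a count over named genes is no independent evidence of direction. Of those 3780 genes, 13.7% were higher and 25.5% lower at 12 h, and the counts of gene lists below are to be read against these shares as well. In bulk midgut RNA, fewer cells of a type and less RNA per cell cannot be told apart.

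A ratio at 12 h depends on the untreated midguts of 12 h alone. To show how far, the Bin-exposed level of 12 h was also set against the untreated level of the other times, after the mean intensities of all arrays had been brought to the same distribution. This is a description across slides, with no test. Of the 767 rises, 533 were also at least 0.75 above the untreated level of 6 h and 182 above that of 18 h. Of the 1088 falls, 602 were also at least 0.75 below the untreated level of 6 h and 240 below that of 18 h. Together 157 rises and 167 falls, 17.5% of the calls, kept that distance from the untreated level of all 3 times. Each time was hybridized on a slide of its own, so the time of collection and the slide cannot be told apart.

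The largest rises fell on a sodium/solute symporter, which moves solutes into cells along the sodium gradient, on SERAC1, known in human cells for the traffic of phospholipids between mitochondria and endoplasmic reticulum (ER), on a cysteine-rich venom protein and on lipase 3. The symporter (CPIJ002361) had ratios of 4.33, 3.57, 4.80 and 3.82 on replicates 1 to 4, a mean of 4.13 ± 0.55 (SD, n = 4, adjusted p = 1.7e-06). Its background-subtracted signal was 14660, 4706, 24040 and 7364 in Bin-exposed midguts, against 496, 339, 623 and 474 in untreated midguts, so the groups did not overlap. SERAC1 (CPIJ003381) had ratios of 3.15, 3.11, 4.61 and 3.31 (mean 3.55 ± 0.71, adjusted p = 2.4e-07), with replicate 3 well above the other arrays. The cysteine-rich venom protein (CPIJ000210), a member of a family of secreted proteins, had 2.33, 2.51, 4.56 and 3.82. Lipase 3 (CPIJ002715) was more even, at 2.50, 2.86, 3.35 and 3.20. Its signal was 21712, 19018, 32003 and 30465 in Bin-exposed midguts, against 2947, 2517, 2504 and 3219 in untreated midguts. The largest rise of all, 4.34 ± 0.39, was that of a conserved hypothetical protein (CPIJ009451) whose spots were saturated in the Bin-exposed channel of 2 arrays, so that its ratio there may be too small. A UDP-glucuronosyltransferase (CPIJ008571, 2.79 ± 0.77), cytochrome P450 4c21 (CPIJ017243, 2.77 ± 0.31) and serine collagenase 1 (CPIJ003994, 2.71 ± 0.73) were also among the 12 largest rises, of which 5, CPIJ009451 included, were named only as hypothetical. All 12 were also at least 0.75 above the untreated level of 6 and of 18 h.

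Proteases and lipases made up most of the named genes among the 12 largest falls. Chymotrypsin BI (CPIJ002156), a digestive serine protease, had ratios of -3.94, -3.98, -4.05 and -3.92, a mean of -3.97 ± 0.06 (adjusted p = 1.2e-07), and the arrays hardly differed. Its signal was 2941, 1914, 2334 and 2342 in Bin-exposed midguts, against 36196, 30246, 31942 and 35749 in untreated midguts. Cathepsin B-like thiol protease (CPIJ001240), a cysteine protease of the lysosome and the gut lumen, had -3.59, -3.49, -3.80 and -3.07. Cathepsin B (CPIJ001239) had -3.67, -3.49, -3.49 and -2.70. The identifiers of these proteases are consecutive, and probes may not separate genes so alike. A metalloproteinase (CPIJ010224, -4.26, -1.54, -4.08 and -3.77) and a pair of lipases (CPIJ007035, -4.25, -1.56, -4.85 and -4.80, and CPIJ007033, -3.50, -1.60, -3.70 and -3.59) fell least on replicate 2. General odorant-binding protein 99a (CPIJ017326), a secreted carrier of small hydrophobic molecules, had its weakest fall on replicate 1 (-1.29, -3.50, -5.02 and -3.33). Prolylcarboxypeptidase (CPIJ008878), which removes the last residue after a proline, was even at -3.16, -3.08, -3.32 and -2.92. Of the 12 largest falls, 6 kept 0.75 below the untreated level of all 3 times, among them chymotrypsin BI and both cathepsins, but not the metalloproteinase, the lipases, the odorant-binding protein or prolylcarboxypeptidase.

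**Figure D2:**
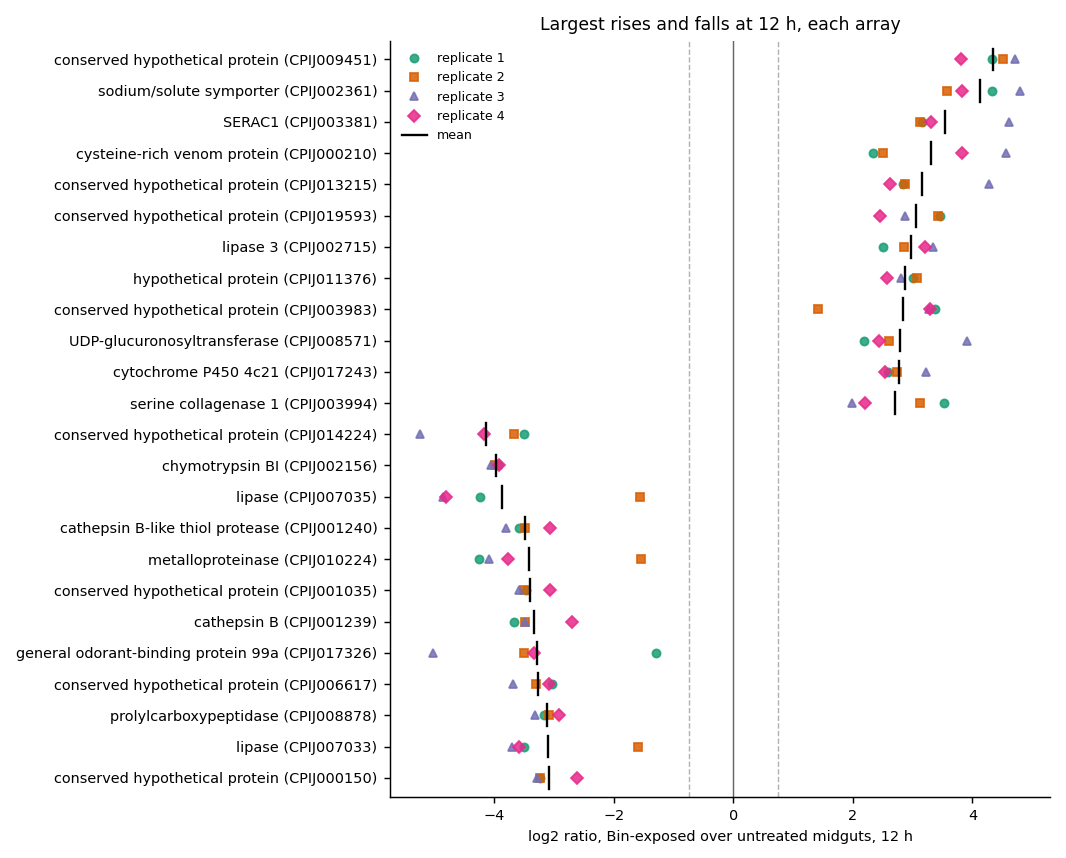
Log2 ratio of Bin-exposed over untreated midguts (x axis) of the 12 largest rises and the 12 largest falls at 12 h (y axis, names and identifiers), with a point for each array, a vertical bar for the mean, and dashed lines at 0.75 on either side of 0. Points of a gene stay on its side of 0, while replicate 2 lies apart for both lipases and the metalloproteinase at about -1.6.

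For 5 genes, a channel was not well above background on any of the 4 arrays, so only a bound can be given, taken against the lowest signal that was well above background on each array. Zinc metalloproteinase nas-8 (CPIJ010223), a secreted astacin-type protease, was at least 5.60-fold lower in Bin-exposed midguts (adjusted p = 2.6e-07). The other bounds were smaller. CPIJ039733, unnamed here, was at least 1.87-fold higher, and CPIJ000341, CPIJ007446 and CPIJ014724, all hypothetical, were at least 1.86-fold, 1.81-fold and 1.72-fold lower. These 4 were not called when the background was fitted on all spots (mean ratios of 0.67, -0.66, -0.65 and -0.56).

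Genes of luminal digestion moved in both directions, as did the genes the study lists as a whole (13.7% higher and 25.5% lower). Of 45 trypsin-like and chymotrypsin-like serine endopeptidases, 8 were higher, 12 lower and 25 did not pass, with a median of -0.32. Their shares, 17.8% higher and 26.7% lower, were near those of all genes the study lists. Besides serine collagenase 1 (3.52, 3.12, 1.99 and 2.20), chymotrypsinogen 2 (CPIJ006544) rose by 2.46 ± 0.99. A serine-type endopeptidase (CPIJ007385) fell by 2.75 on average. Exopeptidases, which trim peptides from their ends, fell more often than they rose, with 1 higher and 14 lower of 39. Zinc carboxypeptidase (CPIJ009394) had -1.88, -1.90, -1.89 and -1.90 on the 4 arrays, the tightest fall among them, whereas another zinc-carboxypeptidase (CPIJ010803) rose by 1.06 ± 0.22. Of 19 starch and sugar hydrolases, 3 were higher and 4 lower (15.8% and 21.1%). The maltase 1 of the array (CPIJ013170), which the study places with toxin binding, was saturated in both channels of all 4 arrays, so its ratio cannot be read. An alpha-glucosidase that the study places there too (CPIJ008904, named here for that reason and not by size) had -1.19, -1.30, -1.17 and -0.79 and was lower (adjusted p = 0.00080). An alpha-glucosidase (CPIJ012204) rose by 1.07 ± 0.07, and alpha-amylase 1 (CPIJ008079), which cuts starch, by 0.88 ± 0.25 with saturated spots in the Bin-exposed channel of 3 arrays. The study places alpha-amylase 1 with toxin binding as well, but reports it lower at 12 h, the opposite direction. The reason for this difference was not tested. Alpha-galactosidase A (CPIJ002066) and lactase-phlorizin hydrolase (CPIJ008531) fell by 1.41 and 1.28. Of 21 lipases, 3 were higher and 4 lower (14.3% and 19.0%). No gene of chitin turnover and the peritrophic matrix was higher and 6 of 16 were lower, led by basic endochitinase CHB4 (CPIJ019598, -2.21 ± 0.63, adjusted p = 0.016) and endochitinase A (CPIJ018802, -2.16 ± 0.58, adjusted p = 0.017). The count of lower genes in this list was 4, 4, 2 and 3 without replicates 1, 2, 3 and 4. Both endochitinases lost their call when replicate 3 or replicate 4 was left out, and endochitinase A also without replicate 2 (adjusted p between 0.050 and 0.062), and their near-equal values on every array do not separate the genes. The brush border enzyme alkaline phosphatase was lower for 3 of 7 genes, of which CPIJ015241 had -1.73, -1.80, -3.63 and -3.09 and a membrane-bound form (CPIJ018121) -1.16, -1.21, -2.13 and -2.25, with larger falls on replicates 3 and 4. The summed signal of the alkaline phosphatases was 20923 to 27677 in Bin-exposed midguts, against 42606 to 44018 in untreated midguts, and that of the serine endopeptidases was 536609 to 631967 against 703050 to 716406, so neither sum overlapped between the groups. Exopeptidases, at 555022 to 632922 against 717277 to 739848, did not overlap either. Untreated sums of these lists varied little over the arrays. The starch and sugar hydrolases summed to 602652 to 632071 in Bin-exposed midguts, against 587095 to 612922 in untreated midguts, and these ranges overlapped. Only 12 of these 19 hydrolases were free of saturation on all 4 arrays of a channel, against 41 of the 45 serine endopeptidases. The other hydrolases were saturated, which limits how far this sum could differ, so the overlap does not show that they were unchanged.

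**Figure D3:**
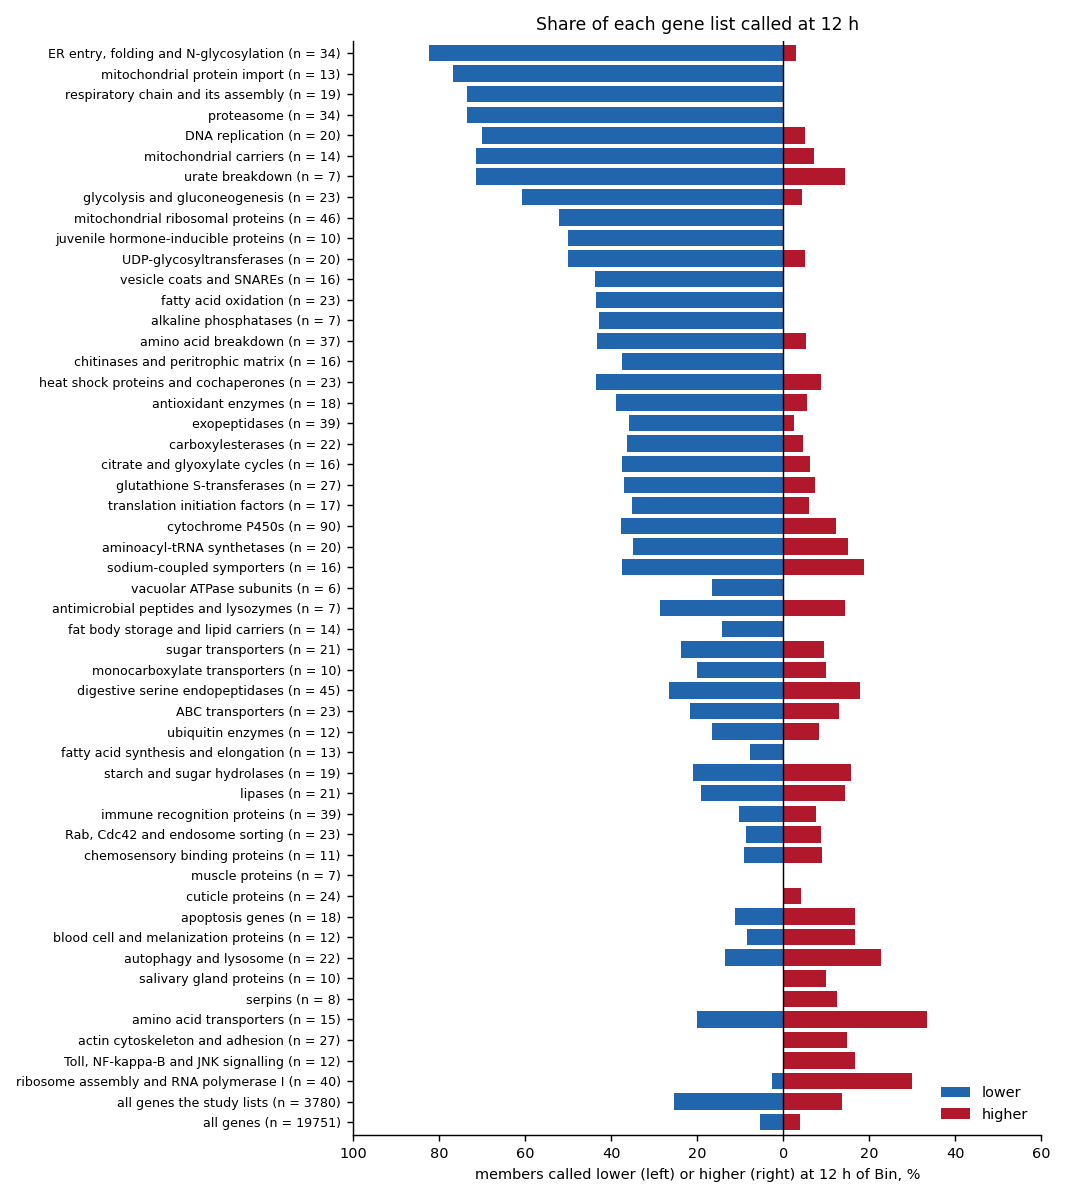
Share of the members of each of 51 gene lists (y axis, with the number of genes) called lower (blue bars, to the left) or higher (red bars, to the right) at 12 h of Bin (x axis, percent), with all genes the study lists and all genes tested at the bottom. Lists of ER, mitochondrion, proteasome and DNA replication lie far to the left, at 82.4% lower for ER entry and folding, and ribosome assembly has 30.0% higher.

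Membrane transporters also changed both ways, as did the genes the study lists as a whole (13.7% higher and 25.5% lower). Amino acid transporters had 5 higher and 3 lower of 15, the largest share of rises among the transport lists. Among them the tryptophan transporter (CPIJ012065) had 2.99, 2.35, 1.82 and 2.58 and a sodium/chloride-dependent amino acid transporter (CPIJ003267) 1.86, 1.65, 1.45 and 1.55, while a cationic amino acid transporter (CPIJ008928) fell by 1.44. Sodium-coupled symporters had 3 higher and 6 lower of 16. Besides the strongest riser, a sodium/phosphate cotransporter (CPIJ007434) rose by 0.98 and further sodium/solute symporters (CPIJ001859 and CPIJ000151) fell by 1.68 and 1.31. Sugar transporters had 2 higher and 5 lower of 21, ABC transporters, which pump compounds out of cells, 3 higher and 5 lower of 23, and monocarboxylate transporters 1 higher and 2 lower of 10. Without replicate 2, 5 ABC transporters were higher, and without replicate 1 or 2, 2 monocarboxylate transporters. Monocarboxylate transporter CPIJ000242 fell by 2.70 ± 0.92 and multidrug resistance protein 2 (CPIJ016887) by 1.92 ± 0.38. Of 6 vacuolar ATPase subunits, which acidify vesicles and energize the midgut membrane, only subunit C (CPIJ002067, -0.75 ± 0.37) was called, and not without replicate 4 (adjusted p = 0.053). Its mean also fell short of 0.75 under other settings, among them scaling between arrays (-0.687) and the deposited log ratios (-0.746).

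Lists of mitochondrial proteins had more falls than rises, where all genes the study lists had 25.5% lower and 13.7% higher. Of 46 mitochondrial ribosomal proteins, which build the proteins encoded in mitochondrial DNA, 24 were lower, 22 did not pass and none was higher (median -0.84). Of 19 respiratory chain proteins and their assembly factors, 14 were lower and none higher (median -0.94). Of 13 proteins that import precursors into mitochondria, 10 were lower and none higher (median -0.98), and of 14 carriers of the inner membrane 10 were lower and 1 higher. Cytochrome c (CPIJ019024), which passes electrons between complexes of the chain and takes part in apoptosis once released, had ratios of -2.89, -2.91, -2.53 and -2.72 (adjusted p = 1.9e-06). Its signal was 6555, 5056, 7800 and 7304 in Bin-exposed midguts, against 39511, 36915, 38040 and 47092 in untreated midguts. An enzyme of ubiquinone synthesis (CPIJ019470) fell by 1.83 ± 0.22, a translocase of the inner membrane (CPIJ010382) by 1.93 ± 0.10, mitochondrial ribosomal protein S33 (CPIJ018255) by 1.77 ± 0.17, and the tricarboxylate carrier (CPIJ013697) by 1.79 ± 0.20. Against the untreated level of 18 h these falls were mostly gone. Only 1 of the 24 lower mitochondrial ribosomal proteins, 3 of the 14 respiratory chain proteins, none of the 10 import proteins and 1 of the 10 carriers stayed at least 0.75 below it, whereas 19, 8, 6 and 6 stayed below the untreated level of 6 h.

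Among the lists of central metabolism, calls were mostly falls, apart from fatty acid synthesis, where few genes passed. All genes the study lists had 25.5% lower and 13.7% higher. Of 23 genes of glycolysis and gluconeogenesis, 14 were lower and 1, hexokinase (CPIJ008049, 0.79 ± 0.21), was higher, though not without replicate 1 (mean 0.72), and without replicate 4 the count of rises was 2. Hexokinase also lost its call with scaling between arrays (0.73) and with the brightest probe (0.74). Phosphoglycerate mutase 2 (CPIJ014577) had -1.55, -2.09, -2.38 and -2.41, and phosphoenolpyruvate carboxykinase (CPIJ010518), which feeds the making of glucose, -2.44, -2.13, -1.20 and -1.99. In the citrate and glyoxylate cycles 6 of 16 were lower, among them both named subunits of succinyl-CoA ligase (CPIJ018673, -1.77 ± 0.09, and CPIJ005779, -1.17 ± 0.15), and malate synthase (CPIJ000005) was higher by 1.14 ± 0.27. Of 37 genes of amino acid breakdown, 16 were lower and 2 higher. The largest falls there were a saccharopine dehydrogenase-domain protein (CPIJ004019, -2.19, -2.17, -3.70 and -3.05) and ornithine aminotransferase (CPIJ004400, -1.78, -3.04, -2.80 and -2.96), which leads from ornithine towards proline. Branched-chain amino acid aminotransferase (CPIJ015408) rose by 1.70 ± 0.80. Uricase, which oxidizes urate, is on the array under more than 1 identifier, and these parted. CPIJ003456 rose by 1.15 ± 0.65 and CPIJ004815 fell by 1.62 ± 0.56, while allantoinase (CPIJ003807), which acts further along that pathway, fell by 2.00 ± 0.12. Of 23 genes of fatty acid oxidation, 10 were lower and none higher, with acyl-coenzyme A oxidase 3 (CPIJ001556) at -2.34, -2.17, -2.52 and -2.63. Of 13 genes of fatty acid synthesis and elongation, 1 was lower and none higher, and without replicate 1, 3 were lower. Counts of rises also moved with single arrays left out, in the citrate list to 2 without replicate 2 or 3, and in amino acid breakdown to 1 without replicate 1 and 4 without replicate 2.

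Detoxification enzymes fell more often than they rose, with exceptions in each family. Falls also outnumbered rises among all genes the study lists (25.5% lower and 13.7% higher). In the families below, shares of falls ran from 36.4% for carboxylesterases to 50% for UDP-glycosyltransferases. Shares of rises ran from 4.5% for carboxylesterases to 12.2% for P450s. Of 90 cytochrome P450s, oxidases of toxins and hormones, 34 were lower and 11 higher (median -0.46). P450 6A1 (CPIJ005899) had -2.82, -2.77, -2.82 and -2.70 and P450 9b2 (CPIJ000655) fell by 1.85 ± 0.09, while P450 4c21 had 2.58, 2.74, 3.22 and 2.54 and P450 9b1 (CPIJ010175) rose by 1.67 ± 0.67. Of 27 glutathione S-transferases, 10 were lower and 2 higher. Within this family, theta-2 (CPIJ002679) fell by 2.31 ± 0.20 and 1-1 (CPIJ002683) rose by 1.82 ± 0.50. UDP-glycosyltransferases had 10 lower and 1 higher of 20, carboxylesterases 8 lower and 1 higher of 22, and antioxidant enzymes 7 lower and 1 higher of 18. Both peroxiredoxin 6 genes fell (CPIJ008450, -2.45 ± 0.29, and CPIJ011296, -1.75 ± 0.66). Superoxide dismutase 2 (CPIJ000146), which removes superoxide, rose by 1.42 ± 0.75 but had 1.73, 0.30, 1.90 and 1.74, so that replicate 2 stood apart. Against the untreated midguts of 18 h, 17 of the 34 lower P450s, 5 of the 10 lower glutathione S-transferases, 4 of the 10 lower UDP-glycosyltransferases, 6 of the 8 lower carboxylesterases and 2 of the 7 lower antioxidant enzymes stayed at least 0.75 below.

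Genes of protein entry into the ER and of the proteasome were mostly lower, where 25.5% of all genes the study lists were lower. Of 34 genes for entry into the ER, folding and N-glycosylation, 28 were lower and 1 higher (median -1.07). Calreticulin (CPIJ007376), a calcium-binding chaperone of the ER, had -2.69, -2.66, -2.56 and -2.39 (adjusted p = 7.7e-08), and the delta subunit of the translocon-associated complex (CPIJ002043) -1.91, -1.90, -1.74 and -1.87. Srp54 (CPIJ018619), part of the particle that brings new proteins to the ER, was the exception, with a rise of 1.34 ± 0.45. Of 34 proteasome genes, 25 were lower and none higher (median -0.96; 1 higher without replicate 4), with alpha type 4 (CPIJ010893) and beta type 3 (CPIJ016158) both at -1.49. Coats and SNAREs of transport vesicles had 7 lower and none higher of 16, led by membrin (CPIJ006096, -1.19 ± 0.17) and coatomer subunit gamma (CPIJ012523, -1.10 ± 0.13). Here too the untreated level moved with time. Against the untreated midguts of 6 h, 18 of the 28 lower ER genes and 17 of the 25 lower proteasome genes stayed at least 0.75 below, and against those of 18 h 2 of each.

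Genes of DNA replication were lower and some genes of ribosome assembly were higher. Of 20 replication genes, 14 were lower and 1 higher (median -1.20). Partner of sld5 (CPIJ004773), a subunit of the complex that starts the replicative helicase, had -1.95, -2.07, -2.45 and -2.13, and Mcm6 (CPIJ009047), a subunit of that helicase, -1.41, -1.78, -1.78 and -1.81. MCM8 (CPIJ005091) rose by 1.12 ± 0.12. Against the untreated level of 18 h none of the 14 falls kept 0.75, against that of 6 h 12 did. Of 40 genes of ribosome assembly and RNA polymerase I, 12 were higher and 1, gar2 (CPIJ003976, -0.75 ± 0.06), was lower. The count of rises was 12 with any replicate left out, and gar2 was not called without replicate 4. The call of gar2 was also lost with scaling between arrays (-0.69) and with the deposited log ratios (-0.73). Proliferating-cell nucleolar antigen p120 (CPIJ010674) had 1.57, 1.55, 1.98 and 1.60 and SOF1 (CPIJ017451), which acts in the processing of ribosomal RNA, 1.41, 1.44, 1.96 and 1.59. The median of the list was -0.05, so most of its members were not among the rises. Of 20 aminoacyl-tRNA synthetases, which charge tRNAs, 7 were lower and 3 higher, and of 17 translation initiation factors 6 were lower and 1 higher, or none higher without replicate 3. A pair of identifiers for the beta chain of phenylalanyl-tRNA synthetase (CPIJ013070 and CPIJ014573) rose by 1.43 and 1.40 with nearly the same value on each array, 0.30 and 0.26 on replicate 1 and 2.29 and 2.24 on replicate 4, so the probes do not separate them. Without replicate 4, CPIJ014573 was not called (adjusted p = 0.054).

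Lysosomal, cytoskeletal and cell death genes had calls in both directions, except that no actin or adhesion gene was lower. All genes the study lists had 13.7% higher and 25.5% lower. Shares higher and lower were 22.7% and 13.6% for autophagy and lysosome and 8.7% and 8.7% for Rab, Cdc42 and endosome genes. For actin and adhesion genes 14.8% were higher, and apoptosis genes had 16.7% and 11.1%, so rises in these lists were near the share of all listed genes. Of 22 autophagy and lysosome genes, 5 were higher and 3 lower: cystinosin (CPIJ008456), which exports cystine from the lysosome, rose by 1.45 ± 0.55 and cathepsin L (CPIJ000574) by 1.36 ± 0.11, while both cathepsin B genes fell as given above. Of 23 Rab, Cdc42 and endosome genes 2 were higher and 2 lower, and without replicate 3 none was higher. Of 27 actin and adhesion genes 4 were higher and none lower, with gelsolin (CPIJ004628), which severs actin filaments, at 2.02, 1.11, 0.99 and 0.59. Of 18 apoptosis genes 3 were higher and 2 lower. The caspase-1 gene CPIJ016551 had 0.83, 1.24, 0.88 and 0.52 and the caspase-1 gene CPIJ008093 -0.62, -0.67, -1.03 and -0.75. Caspases are proteases that carry out apoptosis, and bax inhibitor (CPIJ004894), which counters it, rose by 0.83 ± 0.16, while survivin (CPIJ006694) fell by 0.76 ± 0.05. These calls lay close to the threshold: CPIJ016551 was not called without replicate 2, CPIJ008093 without replicate 3, and survivin without replicate 3 or 4, at means of 0.74, -0.68, -0.75 and -0.73. CPIJ008093 and survivin also lost their calls under several processing settings, such as the deposited log ratios (-0.71 for both). Caspase-3 (CPIJ009057) was not called, at 0.53, 0.12, 0.67 and 0.18. The study, however, reports this gene higher at 12 h, both on its arrays and by quantitative PCR of the same RNA.

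Of 39 immune recognition proteins, 3 were higher and 4 lower, and the count of rises was 1, 1, 4 and 2 without replicates 1, 2, 3 and 4. Their shares, 7.7% higher and 10.3% lower, were below the 13.7% and 25.5% of all genes the study lists. Gram-negative bacteria-binding protein 2 (CPIJ004229), which binds bacterial sugars, had -2.04, -1.91, -1.90 and -1.79, and a fibrinogen-domain protein (CPIJ007727) rose by 1.11 ± 0.28. The adaptor myd88 of the Toll pathway is on the array as CPIJ018307 (0.67, 0.62, 1.69 and 0.76) and CPIJ008547 (0.61, 0.58, 1.41 and 0.61). Both identifiers were called through replicate 3, without which their means were 0.68 and 0.60. Serpin-4 (CPIJ014718), an inhibitor of serine proteases, had 0.61, 0.61, 1.74 and 1.02 and was not called without replicate 3 either (mean 0.75). Among 7 antimicrobial peptides and lysozymes, lysozyme c-4 (CPIJ010731) rose by 1.33 ± 0.75, and lysozyme P (CPIJ010730) and gambicin (CPIJ016084) fell. Gambicin had -1.76, -0.13, -1.82 and -2.22, so replicate 2 was near 0. Of 10 juvenile hormone-inducible proteins 5 were lower and none higher, led by CPIJ007628 at -2.40, -2.49, -2.99 and -2.45.

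On some genes the 4 Bin-exposed samples were not alike, and these genes were chosen after their values were seen. Of 23 heat shock proteins and cochaperones, 2 were called higher and 10 lower. Heat shock protein 83 (CPIJ015075), a general chaperone, fell with -2.55, -2.84, -1.75 and -1.35 and DNA-J/hsp40 (CPIJ005508) with -2.09, -1.92, -1.80 and -1.72. Some small heat shock proteins, which hold unfolding proteins in solution, were near 0 on replicates 1 and 2 and high on replicates 3 and 4. Heat shock protein 26 (CPIJ005640) was also high on replicate 1, with 1.49, -0.29, 2.86 and 2.29, and was called (adjusted p = 0.0078). Heat shock protein 27 (CPIJ005642) had -0.08, 0.10, 4.57 and 3.43, heat shock protein 22 (CPIJ005645) -0.17, 0.21, 4.57 and 3.38, and alphaA-crystallin (CPIJ005646) 0.00, 0.08, 4.46 and 3.88. The last 3 had means of 2.00, 2.00 and 2.11, which did not pass (adjusted p between 0.052 and 0.054). The signal of heat shock protein 27 was 330, 259, 9617 and 3800 in Bin-exposed midguts, against 236, 214, 264 and 299 in untreated midguts, so that replicates 3 and 4 alone stood above the untreated values by a wide margin. Heat shock protein 70 B2, a chaperone induced by heat and other stress, was high on the same arrays (CPIJ011081, -0.61, -0.51, 3.47 and 2.40, adjusted p = 0.17). Without replicate 1 or without replicate 2, 6 genes of this list were higher, and without replicate 3 or 4 the count was 2. A gene named only "lethal" (CPIJ005644), whose identifier lies between those of the small heat shock proteins, was called with 1.19, 1.08, 4.58 and 3.49.

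Proteins of the fat body, the larval store of protein and lipid, divided the same arrays another way. Hexamerin 2 beta (CPIJ009506), a storage protein, had 0.04, -0.01, -5.11 and -4.61 (mean -2.42, adjusted p = 0.050, not called). Of 14 fat body storage and lipid carrier genes, 12 were above 0 on replicate 1, against 2, 1 and 1 on replicates 2, 3 and 4, and the medians were 1.20, -0.74, -2.97 and -1.56. Only apolipophorins (CPIJ007204, -1.47) and arylphorin subunit alpha (CPIJ007783, -0.998) were called, and without replicate 3 or without replicate 4 neither was (adjusted p of arylphorin 0.093 and 0.076), while 3 genes were lower without replicate 1 or 2. Cuticle proteins, which coat the foregut, hindgut and body wall, were high on replicate 1, where 17 of 24 were at or above 0.75 with a median of 1.95. On replicates 2, 3 and 4 their medians were -0.20, -0.87 and -0.92. Only pupal cuticle protein 78E (CPIJ012466, 2.40, 0.78, 2.08 and 0.11) was called, and it lost its call without replicate 1 (adjusted p = 0.066) or 3 (adjusted p = 0.059). Without replicate 1, 9 cuticle genes were called lower, and without replicate 4, 4 were called higher.

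**Figure D4:**
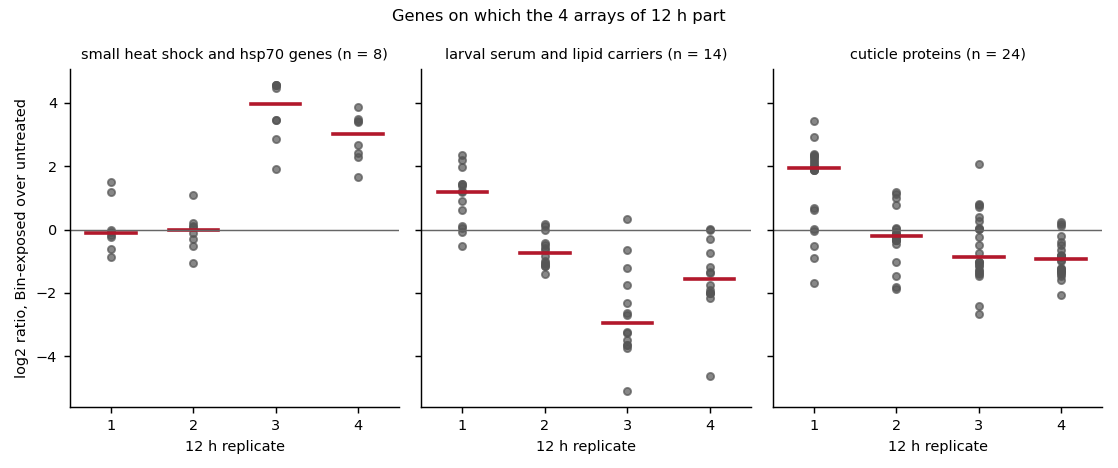
Log2 ratio of Bin-exposed over untreated midguts (y axis) on each array of 12 h (x axis, replicates 1 to 4) for 8 small heat shock and hsp70 genes, 14 larval serum and lipid carrier genes and 24 cuticle genes, with a point for each gene and a red bar for the median. The 8 include CPIJ005644, named only "lethal" and not shown to be a heat shock gene, at 1.19 and 1.08 on replicates 1 and 2. Heat shock genes are high on replicates 3 and 4, larval serum genes lowest on replicate 3, and cuticle genes high on replicate 1 with a median of 1.95.

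Summed signals of the lists of other cell types showed how unlike the Bin-exposed samples were. The fat body list summed to 46594 to 333641 in Bin-exposed midguts, against 119937 to 213989 in untreated midguts, and the cuticle list to 8823 to 85891 against 18834 to 19877. Salivary gland proteins summed to 19227 to 48388 against 25074 to 27057 and muscle proteins to 14171 to 19690 against 14886 to 15967, so for these 4 lists the ranges overlapped. Blood cell and melanization proteins summed to 63139 to 86407 against 87968 to 93305, lower in Bin-exposed midguts on 4 of 4 arrays, with 2 of 12 called higher, both named yellow (CPIJ008700 and CPIJ018481), and 1, a collagen alpha chain (CPIJ001786), lower. Without replicate 1 and replicate 2 in turn, 4 and 2 of these genes were lower, and without replicate 3 none. Each gene of these lists was well above background in a channel of some array, but all had been called by the study on these arrays. The part of these cell types in the results above was not tested.

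Between times, the response at 12 h differed from that at 6 h for 376 genes, 179 with a higher (0.906% of the genes tested) and 197 with a lower ratio (0.997%) at 12 h, or 1.90% together, and from that at 18 h for 732 genes, 198 with a higher (1.00%) and 534 with a lower ratio (2.70%), or 3.71% together. Of the 767 genes higher at 12 h, 304 were also higher at 6 h and 319 at 18 h, and of the 1088 lower, 492 were lower at 6 h and 256 at 18 h. A further 302 rises and 465 falls were called at 12 h alone, but of these only 19 rises and 27 falls also passed both comparisons between times, so most of them are not shown to be particular to 12 h. The levels of the channels were then read for the genes that differed. Among the 732 genes that differed between 12 and 18 h, the untreated level changed more than the Bin-exposed level for 703 and the Bin-exposed level more for 29. Among the 376 that differed between 12 and 6 h, these counts were 254 and 122. Untreated levels varied little over the arrays of a time, and whether their RNA came from separate pools was not tested. Over all genes, the Bin-exposed level differed by at least 0.75 between 12 and 18 h for 125 genes, and the untreated level for 859. Between 12 and 6 h these counts lay closer together, at 745 for the Bin-exposed and 938 for the untreated level.

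Channel levels of gene lists were read in the same way, for lists chosen after their values were seen. Of the genes in the study's table, 2.96% had a higher and 4.55% a lower ratio at 12 than at 6 h, and 3.62% a higher and 12.5% a lower ratio at 12 than at 18 h. For DNA replication the median ratio at 12 h was -1.20, with -1.01 at the earlier and -0.09 at the later time, and 13 of its 20 genes had a lower ratio at 12 than at 18 h. The median Bin-exposed level of these genes, relative to untreated midguts of 12 h, was -1.16, -1.20 and -0.999 at 6, 12 and 18 h, whereas the untreated level was -0.02, 0 and -0.82. For the ER list 21 of 34 genes had a lower ratio at 12 than at 18 h, and the Bin-exposed level was -1.16, -1.07 and -1.07 while the untreated level was -0.25, 0 and -0.89. For ribosome assembly the median ratio was -0.71, -0.05 and 0.50 at 6, 12 and 18 h, 19 of 40 genes had a higher ratio at 12 than at 6 h, and here the Bin-exposed level went up (-0.27, -0.05 and 0.19) as the untreated level went down (0.48, 0 and -0.22). Between 12 and 18 h the Bin-exposed level of this list moved more than the untreated level, with median differences (12 minus 18 h) of -0.33 and 0.22. The same held for several other lists, among them chitinases and peritrophic matrix (-0.26 and -0.07) and exopeptidases (0.14 and -0.04). Further ones were vacuolar ATPase subunits (0.33 and 0.04), fat body (0.46 and -0.24), serpins (-0.24 and -0.10) and lipases (0.16 and -0.10). The untreated level moved more for others, such as DNA replication and the ER list above. For fatty acid oxidation 9 of 23 genes had a lower ratio at 12 than at 6 h, with an untreated level of -0.45, 0 and -0.45.

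**Figure D5:**
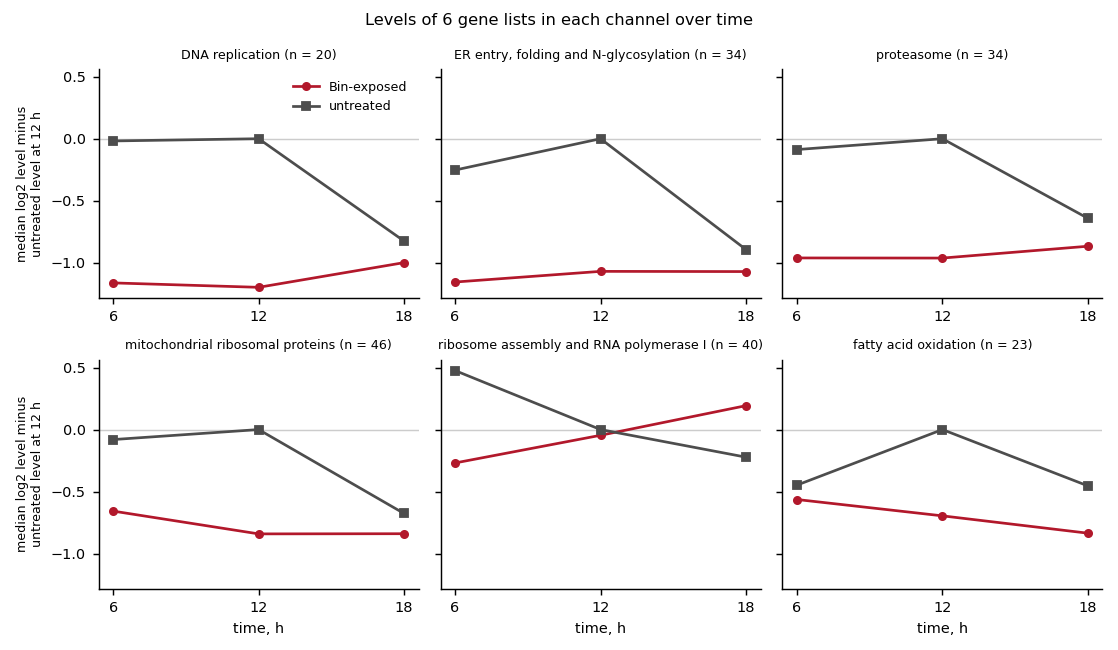
Median log2 level of 6 gene lists (y axis, relative to the level of each gene in untreated midguts of 12 h) at 6, 12 and 18 h (x axis) in Bin-exposed (red circles) and untreated midguts (grey squares). For DNA replication, ER, proteasome and mitochondrial ribosomal proteins the red line stays low at all times and the grey line drops between 12 and 18 h, for DNA replication to -0.82.

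Single genes with the largest differences between times were of both kinds. The cathepsin B pair had ratios lower at 12 than at 6 h by 2.94 (CPIJ001239, adjusted p = 0.011) and 2.74 (CPIJ001240, adjusted p = 0.0028). Untreated levels of the pair were higher at 12 than at 6 h by 1.73 and 2.55, and the Bin-exposed levels differed by -1.21 and -0.19. Lipase 3 had a ratio higher by 2.08 than at 6 h and by 1.71 than at 18 h. The sodium/solute symporter stood 3.24 above its ratio at 18 h, and between these times (12 minus 18 h) its level differed by -0.04 in Bin-exposed and by -3.28 in untreated midguts. A synaptic vesicle protein (CPIJ017597), named for a family of membrane transporters, had -3.05, -2.89, -2.97 and -2.76 at 12 h. Its mean at 18 h was -0.06, a difference of -2.86 (adjusted p = 1.4e-08). Its levels at 12 h were above those at 18 h in both groups, by 2.14 in Bin-exposed and 4.999 in untreated midguts. The larger change was in untreated midguts, which added little to the spread that this p measures. The hypothetical protein CPIJ014196 had -2.31, -2.29, -2.23 and -1.95 at 12 h, against means of 0.20 at 6 h and 0.15 at 18 h, and passed both comparisons (adjusted p = 2.9e-06 and 7.5e-07). Differences from 18 h of the metalloproteinase, the lipase CPIJ007033, venom allergen 3 (CPIJ011834) and endochitinase A had adjusted p between 0.039 and 0.049 and were each lost when single arrays were left out (adjusted p up to 0.114) and with the replicate number as a block (adjusted p of 0.075, 0.064, 0.073 and 0.056). The 60S acidic ribosomal protein P2 (CPIJ016756), higher than at 6 h by 1.73, lost its difference with that block (adjusted p = 0.062) and with single arrays left out (adjusted p up to 0.091).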

How the data were processed

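Larval midgut RNA (200 ng a sample) was hybridized on 2-colour Agilent arrays, 4 at each time. The deposited scanner files hold spot intensities of both channels, local background, spot flags and a log10 ratio of red over green, written per the file headers by Agilent Feature Extraction 11.5.1.1. The deposited value table holds log2 ratios that the authors made with limma. They equal normexp correction with an offset of 16 followed by loess (largest gap 4.98e-08), and were used as an alternative.

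Values were computed with limma 3.58.1 (statmod 1.5.0, R 4.3.3). Median spot signals were background-corrected by normexp (offset 50) after spots of uneven background had been left out, and log2 ratios of each array were then put through a loess fit that gave the 1417 control spots no weight. Spots that the software marked as outliers were left out, and spots of a gene were averaged. A mean for each time was fitted to all 12 arrays (9 residual degrees of freedom), with empirical Bayes moderation and Benjamini-Hochberg adjustment over 19751 genes. The threshold of 0.75 follows the authors' hybridization of a sample against itself. Channel levels came from values whose mean intensities were quantile-normalized between arrays. The script was tested on simulated data. Figures were drawn with matplotlib 3.10.9 in Python 3.11.15.

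The genes named were taken from called genes with the same sign on 4 arrays that were measured in both channels. They are the 12 largest rises and falls and the 5 largest differences between times in each direction. Members of each list with the largest change in each direction were added, up to 4 a list. The 5 largest bounds in each direction were named as well. Any other gene named was chosen after its values were seen. The members and lists were chosen with earlier results of these data known. Lists are name patterns over the names in the study's supplementary table. Its other columns, the authors' own fold changes, were not used. Only names, identifiers and functional groups were taken from it. With 4 arrays a time the precision is low. Alternatives changed the background correction, the offset, the normalization, the treatment of outlying and dim spots, the probe used, the source of the ratios, the arrays in the fit, the prior variance, array weights, a replicate block, the threshold and the replicates.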

Additional observations from a re-analysis of the deposited data

Results flagged for a closer look

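In 20 of the 166 genes named for the 12 h response, the highest or lowest of the 4 arrays lay so far from the others that its gap passed Dixon's 95% critical value, which chance passes in about 1 in 20 groups. Replicate 3 stood apart in 9 of them. It lay above the others for SERAC1 (CPIJ003381, 4.61), the hypothetical protein CPIJ013215 (4.28), p120 (CPIJ010674, 1.98), both myd88 identifiers (CPIJ018307, 1.69, and CPIJ008547, 1.41), the fibrinogen-domain protein CPIJ007727 (1.52), alpha-galactosidase A (CPIJ002066, -1.26) and CPIJ004899 (-1.09), and below them for juvenile hormone-inducible protein CPIJ007628 (-2.99). Replicate 2 stood apart for CPIJ003983 (1.42), the lipase CPIJ007033 (-1.60), CPIJ014443 (-1.51), superoxide dismutase 2 (CPIJ000146, 0.30) and venom allergen 3 (CPIJ011834, -1.30). Replicate 4 stood apart for CPIJ000150 (-2.62), the sodium/solute symporter CPIJ000151 (-1.10), CPIJ000106 (-0.50) and MCM8 (CPIJ005091, 0.94), and replicate 1 for nas-8 (CPIJ010223, -2.75) and Mcm6 (CPIJ009047, -1.41).

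For 20 differences between times the contrast itself passed the threshold of limma, though 5 of them (CPIJ016756 against 6 h and CPIJ010224, CPIJ007033, CPIJ011834 and CPIJ018802 against 18 h) lost it under several other settings. Ratios at 12 h lay above those at 6 h for CPIJ005644 (4.37), CPIJ008664 (3.50), CPIJ002715 (2.08), CPIJ006677 (1.84) and CPIJ016756 (1.73), and below them for CPIJ001239 (-2.94), CPIJ001240 (-2.74), CPIJ014196 (-2.39), CPIJ020139 (-2.14) and CPIJ004816 (-1.94). Against 18 h they lay above for CPIJ005644 (4.10), CPIJ002361 (3.24), CPIJ012065 (2.96), CPIJ006544 (2.91) and CPIJ012067 (2.73), and below for CPIJ010224 (-3.61), CPIJ007033 (-2.93), CPIJ017597 (-2.86), CPIJ011834 (-2.86) and CPIJ018802 (-2.83).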

How the results depend on the processing

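No call of a named gene turned its direction under any setting run. With each 12 h array left out in turn, 747 to 793 genes were higher and 1033 to 1149 lower, 306 to 397 differed from 6 h and 592 to 842 from 18 h (arrays of the other time left out too). Of the named genes' values at 12 h, 632 kept their call with an array left out and 32 lost it, and 2428 kept it and 62 lost it under the other settings. The differences from 18 h were less firm: 53 kept and 27 lost with an array left out, 122 and 28 under the other settings. Those from 6 h kept 75 and lost 5, and kept 144 and lost 6. Counts moved past 1.5 times as follows, and the cause was not tested. With normexp fitted on all spots, 179 genes differed from 6 h and 462 from 18 h. With plain subtraction 601 differed from 6 h, with median centring 1522 from 18 h, and with the deposited log ratios 198 from 6 h. The scanner software's own log ratio gave 1612 higher and 1678 lower, with 636 and 1154 genes differing from 6 and 18 h. Without the fold threshold there were 4395 higher and 4681 lower, and 2513 and 3802 differing from 6 and 18 h. Falls made up 58.7% of the calls, 49.0% with median centring and 51.0% with the scanner's ratio.

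Deviations of same-numbered arrays correlated between -0.106 and 0.394, over 0.1 in 8 of 12 pairs but not in all, so the numbers were not taken to pair the samples. With the replicate block 775 genes were higher and 1095 lower, and 411 and 748 differed from 6 and 18 h, while 4 of the 10 named differences from 18 h (CPIJ010224, CPIJ007033, CPIJ011834 and CPIJ018802) and 1 from 6 h (CPIJ016756) lost their call. Other scalings of the channel levels were chosen after seeing the data. With median-centred intensities, 219 and 700 of the genes differing from 6 and 18 h changed more in the untreated channel, and 196 rises and 95 falls kept their distance from the untreated level of all 3 times. With quantile normalization of all channels the counts were 257, 700, 133 and 154. Dim spots limit the ratios of genes near background: 1449 genes were not well above background in either channel.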
